A study of Mus musculus with 8 samples.

Results

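The expression of 9 genes of Notch signalling and of the segmentation clock was followed in chimaeric mouse embryos by single-cell RNA sequencing. The 9 genes were Hes7, Lfng, Dll1, Dll3, Notch1, Ripply2, Mesp2, Nrarp and Hes1, chosen by name, and all 9 were found once each among the 55422 features of the count matrices. The question was how each of them differed between cells without TET enzymes and wild-type host cells, in presomitic, somitic, neural and endothelial cells at E7.5 and E8.5.

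Tet-TKO cells carry inactivated alleles of Tet1, Tet2 and Tet3, the enzymes that oxidise 5-methylcytosine, and were embryonic stem cells of a single line that expressed an H2B-tdTomato fusion from a CAG promoter. They were injected into blastocysts of wild-type C57BL/6J mice, embryos of 1 stage were pooled, and tdTomato+ (Tet-TKO) and tdTomato- (WT host) cells were sorted from the chimaeras. At E8.5 the tdTomato+ sort gave 4 libraries and the tdTomato- sort gave 2, and at E7.5 each sort gave 1. The labels give the strain of the Tet-TKO libraries as C57BL/6J-129Sv and the host was C57BL/6J, so the genotype, the strain, the passage through culture and the reporter differ together between the groups and cannot be told apart. Nothing in the labels says which libraries came from separate pools of embryos, and p-values measure the spread between libraries, which may be technical.

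The libraries held 65601218 to 136982886 unique molecular identifiers (UMIs), and 49842 of 52526 barcodes were kept. The reporter, tdTomato, was at 71.5 to 145 CPM (UMI counts scaled to 1000000 per library) in the Tet-TKO libraries and at 0.444 to 0.938 CPM in the WT host libraries, in keeping with the labels of the sort. The 3′ counts of Tet1 and Tet3 overlapped between the groups at E8.5 and those of Tet2 were higher in all 4 Tet-TKO libraries (5.55 to 10.5 against 4.67 and 4.63 CPM), and since these reads need not cover the mutated exons they do not check the genotype. The 4 Tet-TKO libraries of E8.5 fell into 2 like pairs. The chi-square statistic of the gene counts was 15.5 per degree of freedom between Tet-TKO 1 and 2 and 17.7 between Tet-TKO 3 and 4, but 176 to 190 between libraries of different pairs and 140.5 between both WT host libraries. Libraries 3 and 4 were also the deepest, with medians of 40400.5 and 68931 UMIs per cell against 12178 to 18774 in the other 4, so results below are given for each pair where they differ. In the Tbx6-Msgn1, somite-like, neuromesodermal progenitor-like and endothelium-like classes below, 8 erythroid markers summed to 583 to 6176 CPM in WT host libraries and to 7.86 to 61.7 CPM in Tet-TKO libraries. The part of this in the results was not tested. Any 2 libraries shared at most 29 cell barcodes.

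Notch receptors are cleaved when a ligand on a neighbouring cell binds them, and the released intracellular domain joins the DNA-binding protein RBPJ to switch on target genes. In the presomitic mesoderm, the tissue at the tail end of the embryo that forms somites, this pathway is switched on and off in waves: HES7 represses its own gene and that of Lfng, and each wave ends where MESP2 and RIPPLY2 set a new somite boundary. The same pathway holds back neuronal differentiation in the neural tube and guides arterial fate in endothelium. Because cells are captured at unknown phases of the waves, a sum over cells reports an average level and not the oscillation.

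The genes are given by role, with positions from the GENCODE annotation of GRCm38 (mm10). The ligand Dll1 (ENSMUSG00000014773, chr17:15367354-15376872, minus strand) activates Notch on neighbouring cells, whereas Dll3 (ENSMUSG00000003436, chr7:28293553-28302238, minus strand) codes for a divergent ligand that acts on Notch within its own cell. Notch1 (ENSMUSG00000026923, chr2:26457903-26516663, minus strand) codes for the receptor, and the microRNA gene Mir6996 lies within it on the same strand. Lfng (ENSMUSG00000029570, chr5:140607320-140615545, plus strand) codes for a glycosyltransferase that modifies Notch. Hes7 (ENSMUSG00000023781, chr11:69120404-69124055, plus strand) and Hes1 (ENSMUSG00000022528, chr16:30064384-30067796, plus strand) code for repressors that Notch induces, and Nrarp (ENSMUSG00000078202, chr2:25180758-25183339, plus strand) codes for an ankyrin-repeat protein that dampens Notch signalling and is itself a Notch target. Mesp2 (ENSMUSG00000030543, chr7:79810727-79813439, plus strand) and Ripply2 (ENSMUSG00000047897, chr9:87015537-87019917, plus strand) act at the forming boundary. All 9 are protein-coding, and the UMIs count 3′ ends over the whole gene.

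Promoter windows are shown for 3 of the genes because they differ in whether they hold the letters that RBPJ recognises. RefSeq (GRCm38.p6) gave a window of 250 bases before to 50 after the start for 8 of the 9 genes, all but Hes1. The letters searched were TGGGAA on either strand, which reads TTCCCA when the match lies on the other strand, and matches are in capitals below. The windows are Hes7 at chr11:69120203-69120502 (plus strand), Lfng at chr5:140607091-140607390 (plus strand) and Dll3 at chr7:28301736-28302035 (minus strand), each written 5′ to 3′ along the gene.
Hes7: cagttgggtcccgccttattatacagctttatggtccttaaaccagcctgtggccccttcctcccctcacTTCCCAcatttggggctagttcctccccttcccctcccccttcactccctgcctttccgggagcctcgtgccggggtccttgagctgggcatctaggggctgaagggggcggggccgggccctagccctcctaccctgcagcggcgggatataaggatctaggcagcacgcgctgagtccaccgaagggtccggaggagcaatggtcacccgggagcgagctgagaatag
Lfng: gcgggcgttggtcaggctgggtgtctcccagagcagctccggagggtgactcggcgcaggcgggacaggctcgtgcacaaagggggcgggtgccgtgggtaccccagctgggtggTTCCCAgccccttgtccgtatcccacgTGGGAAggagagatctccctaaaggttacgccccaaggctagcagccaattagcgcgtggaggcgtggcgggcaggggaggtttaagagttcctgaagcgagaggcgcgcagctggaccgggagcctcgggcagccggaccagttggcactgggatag
Dll3: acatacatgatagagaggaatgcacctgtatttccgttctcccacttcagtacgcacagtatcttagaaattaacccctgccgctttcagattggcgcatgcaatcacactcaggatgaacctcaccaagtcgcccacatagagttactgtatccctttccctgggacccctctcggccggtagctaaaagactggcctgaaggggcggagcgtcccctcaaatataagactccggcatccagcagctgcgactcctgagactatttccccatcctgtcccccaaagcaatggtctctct
The Hes7 window held 1 match and the Lfng window 2, and the other 6 genes with a window held none, against 25.561% of all 32851 promoters of this length with at least 1. The longer form GTGGGAA was found in the windows of Hes7 and Lfng and in 6.383% of all promoters. In Lfng the match nearer to the start overlapped a CACGTG E-box by 2 letters, and CACGTG was present in 7.15% of all promoters. Such matches are a description of letters in these windows and say nothing of binding. Dll3 is 1 of the 6 genes without a match, and no link between matches and levels was tested.

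Cells were grouped without the 9 genes, so their levels in each group describe where they were expressed. Of 35 groups at E8.5, 31 had at least 10 cells in both WT host and at least 2 Tet-TKO libraries, and among these the one highest for 4 of the 9 genes was a cluster led by Tbx6 and Msgn1, which raised 5 of 8 presomitic mesoderm markers but not Pcdh8, Cyp26a1 or Wnt5a, and is called the Tbx6-Msgn1 cluster for that reason. It held 39 to 471 cells per library. Levels below are CPM within the class, scaled to all UMIs of its cells in a library, and since 3′ counts depend on the gene they are compared within a gene only.

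Hes7, the clock repressor, averaged 128 ± 28.3 CPM (SD, n = 6 libraries of both genotypes) in the Tbx6-Msgn1 cluster and 107 ± 15.9 CPM in neuromesodermal progenitor (NMP)-like cells, the bipotent progenitors of spinal cord and trunk mesoderm. These values overlapped between libraries. Dll3 averaged 127 ± 44.8 CPM in the Tbx6-Msgn1 cluster, 49.0 ± 6.69 CPM in NMP-like cells and 31.0 ± 12.8 CPM in somite-like cells, and the range of the first did not overlap that of the second. Dll1 was ordered in the same way, at 95.7 ± 26.6, 24.7 ± 6.01 and 16.8 ± 6.37 CPM, again with only the first step free of overlap. The boundary genes were highest in somite-like cells over both genotypes. Ripply2 averaged 18.7 ± 8.95 CPM in somite-like cells and 1.85 ± 1.12 CPM in the Tbx6-Msgn1 cluster, without overlap, and Mesp2 10.6 ± 9.08 and 4.23 ± 3.59 CPM, with overlap. For Mesp2 the WT host libraries did not share an order, since WT host 1 was at 6.60 and 4.25 CPM in these classes and WT host 2 at 1.50 and 3.93 CPM.

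Lfng, Notch1, Nrarp and Hes1 reached outside the paraxial mesoderm. Lfng was at similar levels in spinal cord-like (21.6 ± 3.22 CPM), midbrain and hindbrain-like (21.5 ± 8.73 CPM) and Tbx6-Msgn1 (20.8 ± 5.32 CPM) cells, with overlapping ranges. Notch1 was highest in notochord-like cells at 81.5 ± 20.4 CPM (n = 5, from 132 UMIs), and followed in endothelium-like cells at 49.6 ± 11.7 CPM and the Tbx6-Msgn1 cluster at 47.5 ± 7.22 CPM. The order of the last 2 depended on the genotype, with means of 43.5 and 49.9 CPM in Tet-TKO and 61.9 and 42.6 CPM in WT host cells. Nrarp averaged 54.2 ± 26.2 CPM in the Tbx6-Msgn1 cluster and 26.1 ± 11.8 CPM in endothelium-like cells, but this gap was that of the Tet-TKO libraries (means of 61.1 and 18.9 CPM), with WT host means of 40.2 and 40.5 CPM. Hes1 was the most widespread and was highest in an unnamed cluster (152 ± 56.1 CPM) and in gut endoderm-like cells (144 ± 84.7 CPM).

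**Figure D1:**
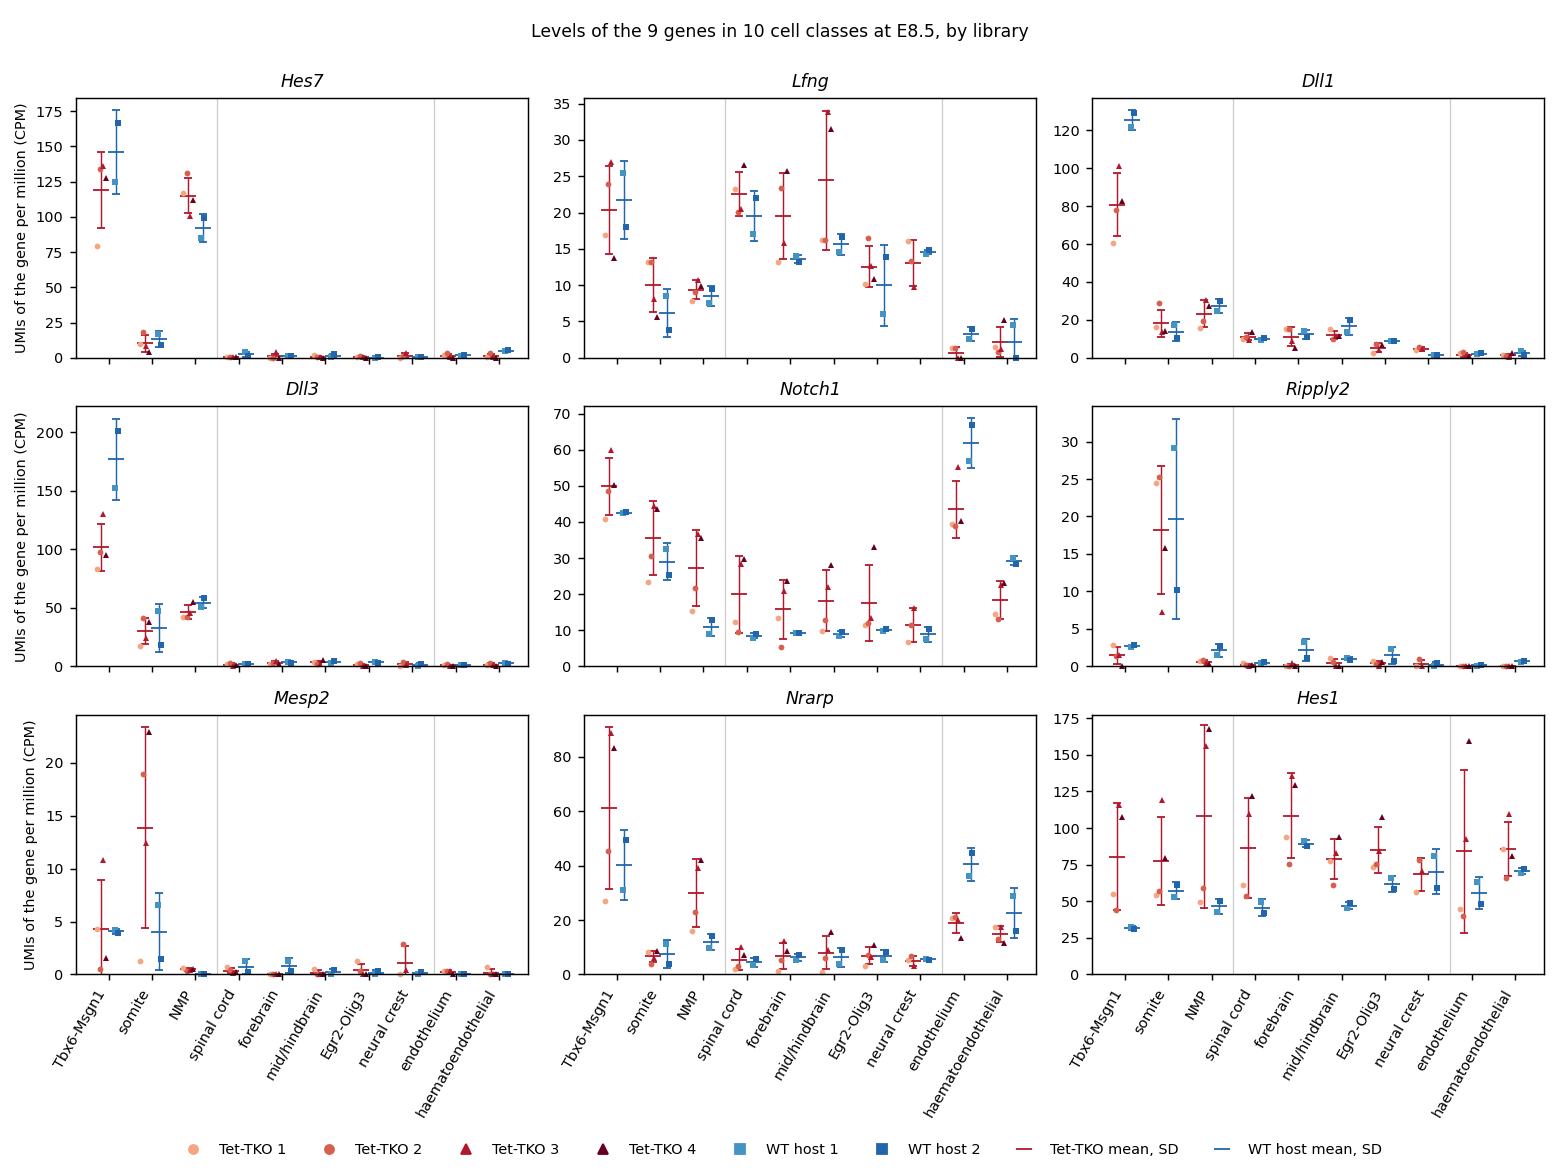
Levels of the 9 genes (y axes, CPM) in 10 cell classes at E8.5 (x axes), with 1 point per library, circles and triangles for Tet-TKO, squares for WT host, and bars for the mean and SD of each genotype, ending at 0 where they would pass it. Dll1 and Dll3 in the Tbx6-Msgn1 cluster and Nrarp in endothelium lie lower in all 4 Tet-TKO libraries than in both WT host libraries, whereas Hes1 lies higher in the Tbx6-Msgn1 cluster, with Tet-TKO 3 and 4 at 116 and 107 CPM.

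The genes whose pattern over the 31 classes was most like that of each member were sought among 8502 genes by Pearson's r of log2(CPM + 1), as a description over classes that share the same 6 libraries. Hes7 was most like Tbx6 (r = 0.896), a T-box factor of presomitic mesoderm, then T (r = 0.878) and Dll3 (r = 0.860). Dll3 was likewise nearest to Tbx6 (r = 0.902), followed by Hes7 and Fgf18 (r = 0.797). Mesp2 and Ripply2 shared Wfdc21 as their nearest gene (r = 0.876 and 0.877), and the following genes were Pcdh19 and Meox1 for Mesp2 and Tcf15 and Cer1 for Ripply2. Dll1 was nearest to Lfng (r = 0.840), Foxb1 and Itpk1, whereas Lfng was nearest to the neural genes Ina (r = 0.890) and Hes5 (r = 0.882). Notch1 had Nfkbil1 and Slc20a2 among its 3 likest genes, Nrarp had Ets2 (r = 0.702), Hes7 and H2-K1, and Hes1 had Yap1 (r = 0.940), Dbn1 and Ptprg. The last 3 are broadly expressed, as Hes1 was.

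The genotypes were compared at E8.5 in 10 classes by edgeR's quasi-likelihood test on the sums of UMIs over the cells of each class in a library, with a call needing an adjusted p under 0.01 and a log2 fold change of at least 1 in either direction. Of 90 pairs of a gene and a class, 58 had enough counts to be tested and 0 were called, whereas 491 of 104879 pairs (0.468%) were called over all genes. At an unadjusted p under 0.05 there were 17 of the 58 (29.3%), against 11% of all pairs. DESeq2 called 2 of the 58, and 0.864% of all pairs. By class, the median log2 fold change of the members tested ran from -0.58 to 0.43, against 0.01 to 0.02 over all genes tested. All 10 classes came from the same 6 libraries and are not independent of each other. In such sums, fewer expressing cells and less RNA per cell cannot be told apart.

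In the Tbx6-Msgn1 cluster the ligand genes lay lower and Hes1 higher in Tet-TKO cells, while Hes7 and Lfng overlapped. Of 8 members tested, 0 were called (0.103% of all genes were), 2 lay lower without overlap (12% of all genes did) and 1 higher (8.32%). The median log2 fold change of the 8 was -0.01, against 0.01 over all genes tested.

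Dll3 was at 82.9, 97.9, 131 and 95.5 CPM in Tet-TKO 1 to 4 and at 153 and 202 CPM in WT host 1 and 2, a mean of 102 ± 20.3 (SD, n = 4) against 177 ± 34.7 CPM (n = 2). Every Tet-TKO library lay lower than both WT host libraries. The log2 fold change was -0.80 ± 0.18 (SE), with an adjusted p of 0.165 in edgeR. Dll1 was at 60.8, 78.1, 101 and 82.8 CPM in Tet-TKO and at 122 and 129 CPM in WT host cells, again without overlap, and its log2 fold change was -0.64 ± 0.17 (edgeR adjusted p = 0.266). Neither passed the threshold. Tbx6, which activates Dll1 in this tissue and was among the genes that defined the clusters, was at 44.8 to 61.4 CPM in Tet-TKO and at 97.3 and 110 CPM in WT host cells (log2 fold change -0.90 ± 0.15, edgeR adjusted p = 0.0468), also not called. Tbx6 was chosen after its values were seen, and it is 1 of 8 presomitic markers whose sum did not lie lower in Tet-TKO cells.

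Hes7 was at 79.1, 134, 136 and 127 CPM in Tet-TKO and at 125 and 167 CPM in WT host cells. Tet-TKO 1 stood apart as the lowest and the other 3 lay within the WT host range (log2 fold change -0.29 ± 0.22, edgeR adjusted p = 0.803). Lfng, which cycles as well, overlapped at 13.8 to 26.9 CPM in Tet-TKO and 17.97 and 25.5 CPM in WT host cells (-0.09 ± 0.30). Notch1 was at 40.8 to 60.1 CPM in Tet-TKO and at 42.5 and 42.7 CPM in WT host cells (0.23 ± 0.17). The boundary gene Mesp2 ranged from 0.528 to 10.8 CPM in Tet-TKO cells around 3.93 and 4.25 CPM in WT host cells, and Ripply2, at 0 to 2.88 CPM, had too few UMIs for a test.

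The Notch targets Hes1 and Nrarp divided the Tet-TKO libraries. Hes1 was at 54.6, 44.0, 116 and 107 CPM in Tet-TKO 1 to 4 and at 32.7 and 30.9 CPM in WT host cells. All 4 Tet-TKO libraries lay higher than both WT host libraries, and libraries 3 and 4 highest (1.31 ± 0.39, edgeR adjusted p = 0.329). Nrarp was at 26.9 and 45.5 CPM in Tet-TKO 1 and 2, at 88.9 and 83.2 CPM in Tet-TKO 3 and 4, and at 31.0 and 49.4 CPM in WT host cells, so the first 2 overlapped the WT host range or lay lower and the last 2 lay higher (0.58 ± 0.44, edgeR adjusted p = 0.804). Markers of other cells in this cluster also differed: 9 somite markers summed to 135 to 263 CPM in Tet-TKO and 316 to 399 CPM in WT host cells with 1 to 4 of them at 0, whereas 8 presomitic markers summed to 814 to 925 and 795 to 846 CPM. The part of these in the member values was not tested.

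In somite-like cells, which raised 9 of 9 somite markers, 0 of 9 members were called (0.319% of all genes were), and none was free of overlap between the genotypes (6.96% of all genes lay higher and 11.1% lower). Mesp2, which sets the segmental boundary and the anterior part of each somite, was at 1.26, 19.0, 12.4 and 23.0 CPM in Tet-TKO 1 to 4 and at 6.60 and 1.50 CPM in WT host cells. Tet-TKO 1 lay lowest of all and the other 3 highest (1.91 ± 0.78, edgeR adjusted p = 0.494). These values rest on 2, 39, 38 and 73 UMIs in Tet-TKO and on 17 and 5 in WT host cells. With all UMIs of each cell counted, Mesp2 was seen in 1.12%, 4.17%, 5.26% and 9.52% of Tet-TKO cells of the class. The shares of WT host cells were 6.29% and 1.51%, so few cells carry these UMIs. These shares also depend on depth, which was greatest in Tet-TKO 3 and 4. At a fixed depth of 5000 UMIs per cell they were 1.01%, 3.25%, 2.48% and 4.02% in Tet-TKO and 3.01% and 0.847% in WT host cells. Ripply2, which ends MESP2 activity, was at 24.5, 25.3, 7.18 and 15.7 CPM in Tet-TKO and at 29.1 and 10.2 CPM in WT host cells, a wide spread in both. Hes7 was at 3.77 to 18.5 CPM in Tet-TKO and 8.97 and 17.1 CPM in WT host cells, and Dll1, Dll3, Lfng, Notch1 and Nrarp overlapped too. Hes1 was at 54.0, 56.9, 119 and 79.3 CPM in Tet-TKO and at 53.2 and 61.3 CPM in WT host cells, so only libraries 3 and 4 lay higher (0.45 ± 0.26). The 9 somite markers summed to 1573 to 1959 CPM in Tet-TKO and 2084 to 2416 CPM in WT host cells of this class, and the part of this in the member values was not tested.

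To see where along the axis the members differed, 4060 NMP-like, Tbx6-Msgn1 and somite-like cells were ordered by 10 rostral and 10 caudal genes, none of them a member, and divided into 5 bins of equal size, from bin 1 (caudal) to bin 5 (rostral). Bin 1 was 86.6% NMP-like cells, bins 2 and 3 57.1% and 52.0%, and bin 4 39.9% beside 54.1% of the Tbx6-Msgn1 cluster. Bin 5 was 94.2% somite-like cells, so classes and position change together along the order. The ordering genes themselves differed between the genotypes. Median log2 fold changes of the rostral genes tested were -0.84 in the Tbx6-Msgn1 cluster, -0.43 in NMP-like and -0.22 in somite-like cells. Those of the caudal genes were -0.08, -0.11 and -0.70. Such a shift can move cells between bins, and its part in the values was not tested. Of 38 pairs of a member and a bin with enough counts, 0 were called, against 0.481%, 0.246%, 0.312%, 0.0881% and 0.329% of all genes in bins 1 to 5. The bins were not filled alike: bin 5 held 11.4%, 11.1%, 24.5% and 25.3% of the ordered cells of Tet-TKO 1 to 4 and 28.2% and 36.4% of those of WT host 1 and 2.

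The clock gene Hes7 was highest at the caudal end in every library. It was at 150, 191, 140 and 195 CPM in Tet-TKO and at 161 and 159 CPM in WT host cells in bin 1, and at 20.4, 27.5, 14.6 and 3.78 CPM in Tet-TKO and 22.1 and 14.8 CPM in WT host cells in bin 5. Both ends overlapped between the genotypes. Hes7 lay higher in all 4 Tet-TKO libraries in bins 2 and 3, the latter at 87.4, 106, 98.0 and 104 CPM against 66.7 and 82.1 CPM (0.44 ± 0.16, edgeR adjusted p = 0.479), where 8.53% and 9.04% of all genes lay higher without overlap.

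The ligands differed most in bin 2, which was 57.1% NMP-like cells. Dll3 was there at 54.5, 59.5, 76.2 and 52.2 CPM in Tet-TKO and at 90.0 and 99.5 CPM in WT host cells (-0.61 ± 0.17, edgeR adjusted p = 0.236), and Dll1 at 34.8, 35.6, 54.9 and 27.5 CPM in Tet-TKO and 59.1 and 56.4 CPM in WT host cells (-0.56 ± 0.24). Both lay lower without overlap, as did 13.7% of all genes in this bin. Bin 2 was the only one of the 5 in which a ligand was free of overlap. In bins 3 and 4, which held most of the Tbx6-Msgn1 cluster, the log2 fold changes of Dll3 were -0.46 and -0.50, with 1 of the 4 Tet-TKO libraries overlapping the WT host range in each. When the Tbx6-Msgn1 and somite-like cells were ordered alone, an alternative added after seeing the data, Dll3 in its most caudal bin was at 48.3, 82.9, 114 and 66.3 CPM in Tet-TKO and at 141 and 182 CPM in WT host cells (-1.05 ± 0.28, edgeR adjusted p = 0.276).

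Notch1, Nrarp and Hes1 differed in the other direction at the caudal end. In bin 2 Notch1 was at 21.2, 31.5, 42.4 and 31.6 CPM in Tet-TKO and at 10.3 and 16.5 CPM in WT host cells (1.27 ± 0.33, edgeR adjusted p = 0.177). In bin 1 Nrarp was at 27.9, 35.7, 63.8 and 77.6 CPM in Tet-TKO and at 18.8 and 19.6 CPM in WT host cells (1.40 ± 0.39, edgeR adjusted p = 0.142). All 4 Tet-TKO libraries lay higher for both genes. Hes1 in bin 1 was at 69.1, 66.6, 176 and 216 CPM in Tet-TKO and at 38.4 and 54.5 CPM in WT host cells (1.46 ± 0.46, edgeR adjusted p = 0.198), and it lay higher without overlap in bins 1 to 4 (10.6%, 8.53%, 9.04% and 8.36% of all genes did), but not in bin 5. At the rostral end Mesp2 was at 8.15, 21.2, 13.0 and 23.0 CPM in Tet-TKO and at 7.51 and 2.08 CPM in WT host cells in bin 5, higher in 4 of 4 libraries but by a narrow gap in the first (1.86 ± 0.53, edgeR adjusted p = 0.272). It was the only member higher without overlap there, with 6.92% of all genes. Ripply2 in the same bin overlapped, at 6.98 to 30.2 CPM in Tet-TKO and 10.7 and 29.7 CPM in WT host cells.

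**Figure D2:**
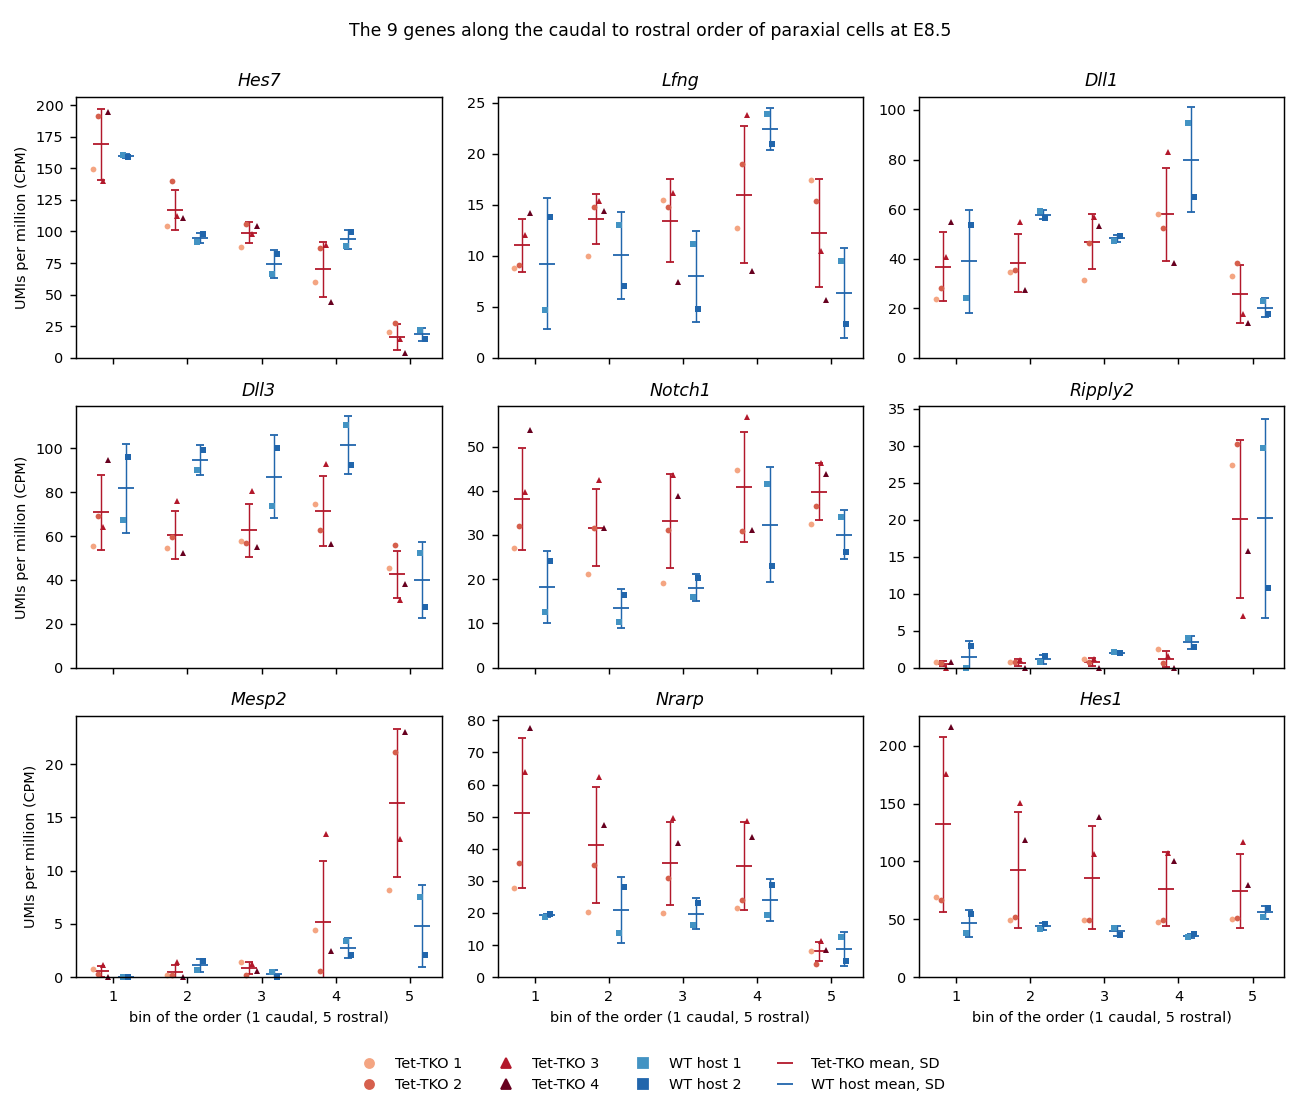
Levels of the 9 genes (y axes, CPM) in 5 bins of the caudal to rostral order of paraxial cells at E8.5 (x axes), with 1 point per library and bars for the mean and SD of each genotype, ending at 0 where they would pass it. Hes7 drops from at least 140 CPM in bin 1 to at most 27.5 CPM in bin 5, Ripply2 and Mesp2 appear in bins 4 and 5, and Dll1 and Dll3 in bin 2 lie lower in all 4 Tet-TKO libraries, with Dll3 at 52.2 to 76.2 against 90.0 and 99.5 CPM.

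In NMP-like cells, which raised 9 of 9 markers of these progenitors, Notch1, Nrarp and Hes7 lay higher in all 4 Tet-TKO libraries. Of 7 members tested, 0 were called (0.406% of all genes were) and 3 lay higher without overlap (11% of all genes did). Notch1 was at 15.2, 21.8, 36.7 and 35.5 CPM in Tet-TKO and at 9.04 and 12.7 CPM in WT host cells (1.32 ± 0.36, edgeR adjusted p = 0.1497). DESeq2 called this value (adjusted p = 0.00927). Nrarp was at 15.9, 23.0, 39.2 and 42.0 CPM in Tet-TKO and at 9.80 and 14.2 CPM in WT host cells (1.31 ± 0.39, edgeR adjusted p = 0.181). For both genes Tet-TKO 1 lay just higher than WT host 2 and libraries 3 and 4 far higher. Hes7 was at 117, 131, 101 and 112 CPM in Tet-TKO and at 85.2 and 98.9 CPM in WT host cells (0.34 ± 0.16, edgeR adjusted p = 0.401). Hes1 was at 49.4, 58.9, 156 and 168 CPM in Tet-TKO and at 42.7 and 50.2 CPM in WT host cells, with library 1 within the WT host range (1.19 ± 0.48).

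Dll3 and Dll1 overlapped over all NMP-like cells, at 42.2 to 55.0 and 15.6 to 30.7 CPM in Tet-TKO against 51.0 and 57.9, and 24.9 and 29.8 CPM, in WT host cells. The class joined 2 clusters, and Dll3 lay lower without overlap in each of them taken alone, as did 12.9% of all genes tested in the class in the first and 14.2% in the second (9.63% and 10.3% lay higher). It was at 20.04, 22.8, 24.5 and 23.4 CPM in Tet-TKO and at 33.1 and 32.4 CPM in WT host cells in the first, and at 71.8, 64.0, 58.4 and 84.8 CPM in Tet-TKO and 88.3 and 89.2 CPM in WT host cells in the second. The second cluster made up 44.3%, 51.8%, 63.0% and 55.6% of the class in Tet-TKO and 33.1% and 46.6% in WT host libraries. Dll1 lay lower without overlap in the second alone, at 28.9 to 46.6 against 52.7 and 49.3 CPM. Hes7, which lay higher over the whole class, overlapped in both, at 37.8 to 68.2 CPM in Tet-TKO and 43.1 and 53.1 CPM in WT host cells in the first and at 138 to 209 CPM and 173 and 155 CPM in the second. Notch1 and Nrarp also overlapped in the first cluster, where Tet-TKO 1 was within or below the WT host range, whereas Hes1 lay higher there without overlap, at 44.6 to 129 against 43.5 and 38.3 CPM. In the second Notch1 and Nrarp lay higher without overlap, Notch1 at 26.3 to 50.7 against 13.2 and 17.7 CPM and Nrarp at 29.0 to 67.2 against 19.4 and 20.5 CPM. Hes1 overlapped there, with Tet-TKO 1 at 55.6 CPM against 41.0 and 64.8 CPM in WT host cells. These are values with no test. The 9 NMP markers summed to 1499 to 1679 CPM in Tet-TKO and 1884 to 2040 CPM in WT host cells of the class, and the part of this and of the mix of clusters in the member values was not tested.

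In 3 of the 5 neural classes, where Notch holds cells in the progenitor state, Hes1 and Notch1 lay higher in all Tet-TKO libraries, and in forebrain-like and neural crest-like cells both overlapped. In midbrain and hindbrain-like cells Hes1 was at 77.3, 61.3, 83.1 and 94.1 CPM in Tet-TKO and at 45.4 and 48.6 CPM in WT host cells. All 4 Tet-TKO libraries lay higher (0.74 ± 0.17, edgeR adjusted p = 0.0753), and Notch1 was higher too, at 9.73, 12.9, 21.96 and 28.2 CPM against 8.42 and 9.47 CPM (1.00 ± 0.37, edgeR adjusted p = 0.310). These were 2 of 6 members tested, of which 0 were called, with 9.14% of all genes higher without overlap and 0.548% called.

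Spinal cord-like cells raised 7 of 9 markers but not Hoxb8 or Hoxc6, and the lowest log2 fold of the 9 was -2.81. The Hox genes of the list therefore do not bear out the name, and the axial level of this class is not settled. Hes1 was there at 61.2, 53.9, 110 and 122 CPM in Tet-TKO and at 49.6 and 41.7 CPM in WT host cells (0.93 ± 0.30, edgeR adjusted p = 0.259). Notch1 was at 12.2, 9.42, 28.4 and 29.7 CPM in Tet-TKO and at 7.92 and 8.98 CPM in WT host cells (1.24 ± 0.46, edgeR adjusted p = 0.355). Both lay higher without overlap, with libraries 3 and 4 well apart from libraries 1 and 2, and again 0 of 5 members tested were called (0.379% of all genes were, and 8.59% lay higher without overlap). Lfng, which is expressed in the neural tube, overlapped at 20.04 to 26.6 CPM in Tet-TKO and 17.1 and 21.95 CPM in WT host cells.

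In a cluster led by Egr2 and Olig3, which raised 4 of 11 midbrain and hindbrain markers, Hes1 was at 73.4, 75.6, 84.4 and 108 CPM in Tet-TKO and at 65.6 and 58.2 CPM in WT host cells (0.48 ± 0.17, edgeR adjusted p = 0.363), and Dll1 was at 2.55, 7.43, 4.33 and 6.92 CPM in Tet-TKO and at 9.05 and 8.92 CPM in WT host cells. There 2 of 5 members lay higher without overlap (8.22% of all genes did), 1 lower (13.5%) and 0 were called (0.368%). In forebrain-like cells 0 of 5 were called (0.571%) and none was free of overlap (7.9% of all genes lay higher and 12.9% lower). Lfng was there at 13.2, 23.3, 15.8 and 25.7 CPM in Tet-TKO and at 14.0 and 13.2 CPM in WT host cells (0.57 ± 0.25). In neural crest-like cells, with 3 Tet-TKO libraries of 10 or more cells, 0 of 4 were called (0.323%) and none of the 4 was free of overlap (12.6% of all genes lay higher and 12.9% lower). Dll1, with too few UMIs there for a test, was at 4.002, 5.73 and 4.45 CPM in Tet-TKO and at 1.59 and 1.42 CPM in WT host cells.

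The Tet-TKO libraries were therefore also compared with the WT host libraries 1 pair at a time, an alternative added after seeing the data in which each fit rests on 2 against 2 libraries. The libraries of a pair were more alike than the WT host libraries, with chi-square statistics of 15.5 and 17.7 per degree of freedom against 140.5. They were not repeats of each other, since Hes7 in the Tbx6-Msgn1 cluster was at 79.1 and 134 CPM in Tet-TKO 1 and 2. The spread within a pair may be technical. The SE and adjusted p-values of these fits may therefore be too small and do not stand for independent embryos. With Tet-TKO 3 and 4 alone, 12 of 57 pairs of a member and a class were called, 11 higher and 1 lower, and with Tet-TKO 1 and 2 alone 0 of 58 were. Over all genes 3.7% of pairs were called with libraries 3 and 4 and 1.51% with libraries 1 and 2. The 11 were Hes1 in the Tbx6-Msgn1 cluster, NMP-like, spinal cord-like and endothelium-like cells, Notch1 in NMP-like, spinal cord-like, forebrain-like and midbrain and hindbrain-like cells, Nrarp in the Tbx6-Msgn1 cluster and NMP-like cells, and Mesp2 in somite-like cells. Libraries 3 and 4 held fewer and deeper cells than the others (39 to 146 cells per library in the Tbx6-Msgn1 and NMP-like classes, against 361 to 718 in libraries 1 and 2), and the part of depth or of the pool of embryos in this was not tested.

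Hes1 and Nrarp differed widely between the pairs in some classes. The log2 fold change of Hes1 was 1.75 ± 0.14 with libraries 3 and 4 and 0.70 ± 0.16 with libraries 1 and 2 in the Tbx6-Msgn1 cluster (edgeR adjusted p = 5.32e-06 and 0.0490), and 1.75 ± 0.11 and 0.30 ± 0.12 in NMP-like cells (edgeR adjusted p = 5.19e-06 and 0.203). In endothelium-like cells its sign differed, at 1.04 ± 0.22 and -0.37 ± 0.13. Notch1 in spinal cord-like cells was at 1.70 ± 0.20 and 0.37 ± 0.27, and Nrarp in the Tbx6-Msgn1 cluster at 1.08 ± 0.18 and -0.08 ± 0.27. In spinal cord-like cells Nrarp was at 0.80 ± 0.32 and -0.81 ± 0.44, the largest rise from libraries 1 and 2 to libraries 3 and 4 of any member and class fitted with both pairs. The gap was narrow in other classes, with Hes1 at 0.83 ± 0.13 and 0.59 ± 0.14 in midbrain and hindbrain-like cells and Nrarp at -0.65 ± 0.37 and -0.54 ± 0.28 in haematoendothelial progenitor-like cells. In the Tbx6-Msgn1 cluster the ligands lay lower with either pair. Dll3 in the Tbx6-Msgn1 cluster had log2 fold changes of -0.67 ± 0.15 with libraries 3 and 4 and of -0.90 ± 0.13 with libraries 1 and 2 (edgeR adjusted p = 0.00881 and 0.00587). Those of Dll1 were -0.49 ± 0.13 and -0.79 ± 0.13 (edgeR adjusted p = 0.0165 and 0.00828). Of these 4 values 3 passed an adjusted p of 0.01, but none reached a log2 fold change of 1. Outside this cluster Dll1 divided too, at 0.04 ± 0.14 with libraries 3 and 4 and -0.56 ± 0.16 with libraries 1 and 2 in NMP-like cells, and at -0.82 ± 0.33 and 0.43 ± 0.28 in forebrain-like cells. Nrarp in endothelium-like cells was also lower with either pair. The difference between the pairs was not tested, since it is a split chosen from the data. When the UMIs of libraries 1 and 2 and those of libraries 3 and 4 were summed, so that 2 sums stood against 2 WT host libraries, 0 of 63 pairs of a member and a class were called (0.345% of all pairs). The edgeR adjusted p was then 0.272 for Dll3 and 0.446 for Dll1 in the Tbx6-Msgn1 cluster and 0.0581 for Nrarp in endothelium-like cells.

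**Figure D3:**
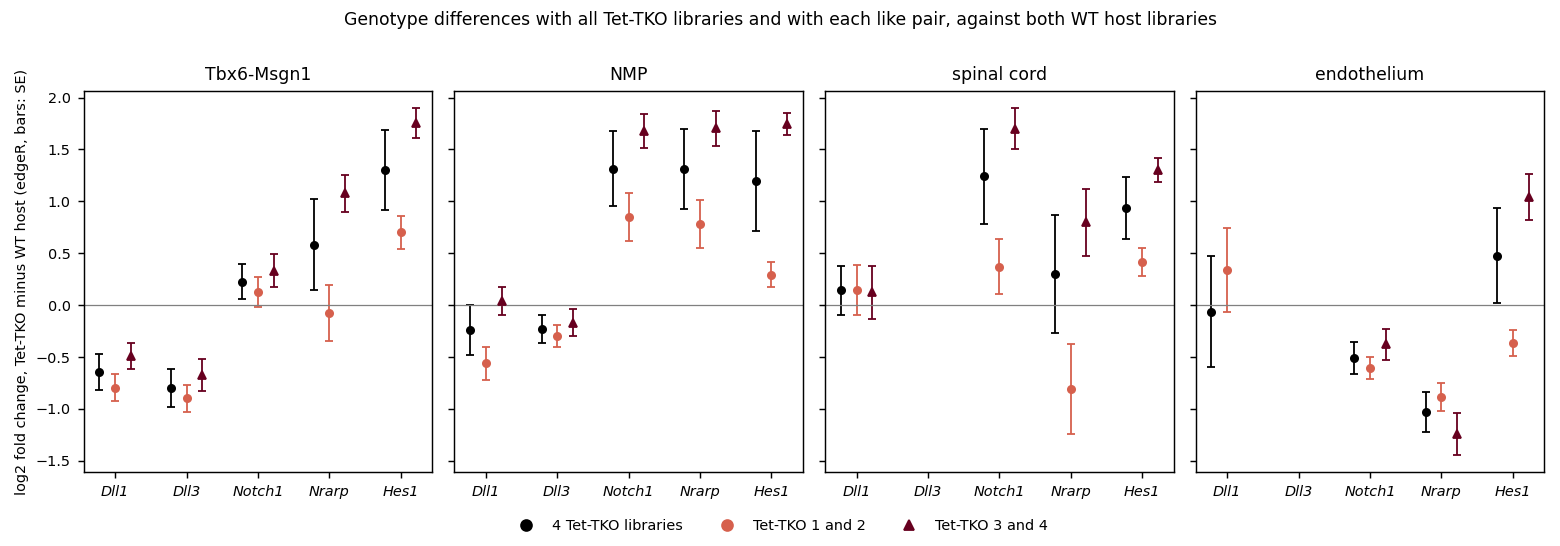
Log2 fold changes of 5 genes (y axis, Tet-TKO minus WT host, edgeR, bars are SE) in 4 classes at E8.5, fitted with all 4 Tet-TKO libraries, with Tet-TKO 1 and 2, or with Tet-TKO 3 and 4, each against both WT host libraries. Dll1 and Dll3 in the Tbx6-Msgn1 cluster and Notch1 and Nrarp in endothelium lie below 0 in all 3 fits, whereas Hes1 in NMP-like cells goes from 0.30 with libraries 1 and 2 to 1.75 with libraries 3 and 4. Genes with too few counts for a fit have no point.

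Endothelium-like cells raised 12 of 12 endothelial markers, and Nrarp and Notch1 lay lower there in all Tet-TKO libraries. Of 6 members tested, 0 were called (1.04% of all genes were) and 3 lay lower without overlap (14.9% of all genes did), with none higher (9.59%). Nrarp was at 20.9, 21.1, 20.1 and 13.5 CPM in Tet-TKO and at 36.2 and 44.8 CPM in WT host cells. The 4 Tet-TKO libraries lay together, at 18.9 ± 3.65 CPM (SD, n = 4) against 40.5 ± 6.08 CPM (n = 2), and the log2 fold change was -1.03 ± 0.19 (edgeR adjusted p = 0.0208), the lowest adjusted p of the 58 pairs. DESeq2 called it (adjusted p = 0.00285). Notch1 was at 39.5, 38.8, 55.3 and 40.4 CPM in Tet-TKO and at 57.0 and 66.9 CPM in WT host cells (-0.51 ± 0.15, edgeR adjusted p = 0.153). Lfng was close to the detection limit and also lay lower, at 1.31, 1.40, 0 and 0 CPM against 2.54 and 3.96 CPM.

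Nrarp lay lower in each of the 3 clusters that made up the class, from the largest to the smallest, as did 12.1%, 15.4% and 12.7% of all genes tested in the class (7.88%, 12.3% and 10.5% lay higher). It was at 18.4, 17.2, 7.005 and 12.9 CPM in Tet-TKO and at 32.3 and 34.1 CPM in WT host cells in the largest. These values rest on 52, 50, 7 and 5 UMIs in Tet-TKO and on 89 and 79 in WT host cells. Those of the smallest rest on 12, 7 and 19 UMIs in Tet-TKO 1 to 3 and on 60 and 53 in WT host cells. In the other 2, where Tet-TKO 4 had under 10 cells, the 3 remaining Tet-TKO libraries were at 21.8 to 26.1 and 13.8 to 33.0 CPM against 32.6 and 47.2, and 53.9 and 72.9 CPM. Notch1 lay lower without overlap in 1 of the 3, and in the largest Tet-TKO 4 was higher than both WT host libraries (72.0 against 62.3 and 66.5 CPM). The smallest cluster made up 5.94% to 25.4% of the class in Tet-TKO and 20.05% and 16.5% in WT host libraries. Over the whole class Hes1 was at 44.6, 39.8, 92.5 and 159 CPM in Tet-TKO and 63.5 and 47.9 CPM in WT host cells, so libraries 1 and 2 lay lowest and libraries 3 and 4 highest (0.48 ± 0.45). The 12 endothelial markers summed to 1655 to 1844 CPM in Tet-TKO and 2301 to 2530 CPM in WT host cells with none at 0, and 8 erythroid markers to 8.23 to 61.7 and 2119 to 6176 CPM, with 1 to 4 of them at 0 in Tet-TKO cells. The part of either in the Nrarp value was not tested.

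In haematoendothelial progenitor-like cells, which raised 6 of 7 markers but not Runx1, Notch1 was at 14.6, 13.2, 22.5 and 23.2 CPM in Tet-TKO and at 30.1 and 28.4 CPM in WT host cells, lower without overlap (-0.77 ± 0.26, edgeR adjusted p = 0.261). It was 1 of 3 members tested, of which 0 were called (0.575% of all genes were, and 12.7% lay lower without overlap). Nrarp was at 17.5, 12.9, 17.3 and 11.6 CPM in Tet-TKO and at 28.97 and 16.03 CPM in WT host cells and overlapped.

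Other genes of the pathway and of the tissues it acts in were taken from 10 lists of 138 genes. Over the 10 classes 5 of 935 tested pairs of a gene and a class were called (0.535%), 1 higher and 4 lower, a share near the 0.468% of all pairs. Mfng, a glycosyltransferase of the same family as Lfng, was at 1.96, 1.55, 3.69 and 3.74 CPM in Tet-TKO and at 26.8 and 33.3 CPM in WT host endothelium-like cells (-3.65 ± 0.27, edgeR adjusted p = 0.000106). It was the 1 gene called among 194 tested pairs of Notch processing and trafficking genes, and stayed called in every alternative run on it. The 7 other ligand and receptor genes gave 0 calls in 47 pairs, with medians by class of -0.35 to 0.60, the 19 genes of the nuclear complex and of its targets 0 in 158, the 22 genes of segmentation and somite polarity 0 in 108, and the 15 genes of neurogenesis 0 in 74.

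In endothelium-like cells the other Notch and arterial genes lay apart in both directions without a call. Of 13 arterial genes tested 5 lay lower (14.9% of all genes did) and 6 higher (9.59%) without overlap, with a median log2 fold change of -0.07, and of the 7 ligands and receptors 3 lay lower and 1 higher. Cxcr4, a chemokine receptor, was among those higher, at 6.53 to 11.2 CPM in Tet-TKO and 3.49 and 2.4998 CPM in WT host cells (edgeR adjusted p = 0.0548), as were Nrp1 (70.7 to 110 against 62.1 and 64.0 CPM) and Kdr, a receptor of vascular growth factor (317 to 557 against 308 and 300 CPM). Dll4, the arterial ligand, was at 8.32, 7.77, 8.72 and 7.48 CPM in Tet-TKO and at 16.7 and 15.4 CPM in WT host cells (-0.97 ± 0.19, edgeR adjusted p = 0.0260), and Notch4 at 3.26 to 5.28 CPM against 7.30 and 9.37 CPM (edgeR adjusted p = 0.144). All 4 Tet-TKO libraries lay lower for both. Sox18, an endothelial transcription factor, was at 53.9 to 80.8 CPM against 132 and 133 CPM in endothelium-like cells (-0.92 ± 0.16, edgeR adjusted p = 0.0133) and it fell in haematoendothelial progenitor-like cells, from 46.2 and 36.4 CPM to 9.73, 8.98, 13.9 and 16.8 CPM (-1.87, edgeR adjusted p = 0.00373). In that class Cdx4, a caudal homeobox gene (1.29 to 6.93 against 44.6 and 52.5 CPM, edgeR adjusted p = 0.000282), and the Wnt target Nkd1 (6.44 to 10.95 against 29.5 and 37.9 CPM, edgeR adjusted p = 0.0051) fell too. Nrp2 rose in midbrain and hindbrain-like cells, from 28.1 and 26.5 CPM to 68.6, 53.0, 87.5 and 85.0 CPM (edgeR adjusted p = 0.00665). The calls of Sox18, Nkd1 and Nrp2 were each lost without WT host 1 or without WT host 2, and those of Mfng and Cdx4 were not. In NMP-like cells Hes3, another Hes repressor, was at 101, 114, 79.2 and 88.5 CPM in Tet-TKO and at 143 and 157 CPM in WT host cells, lower without overlap (edgeR adjusted p = 0.156).

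**Figure D4:**
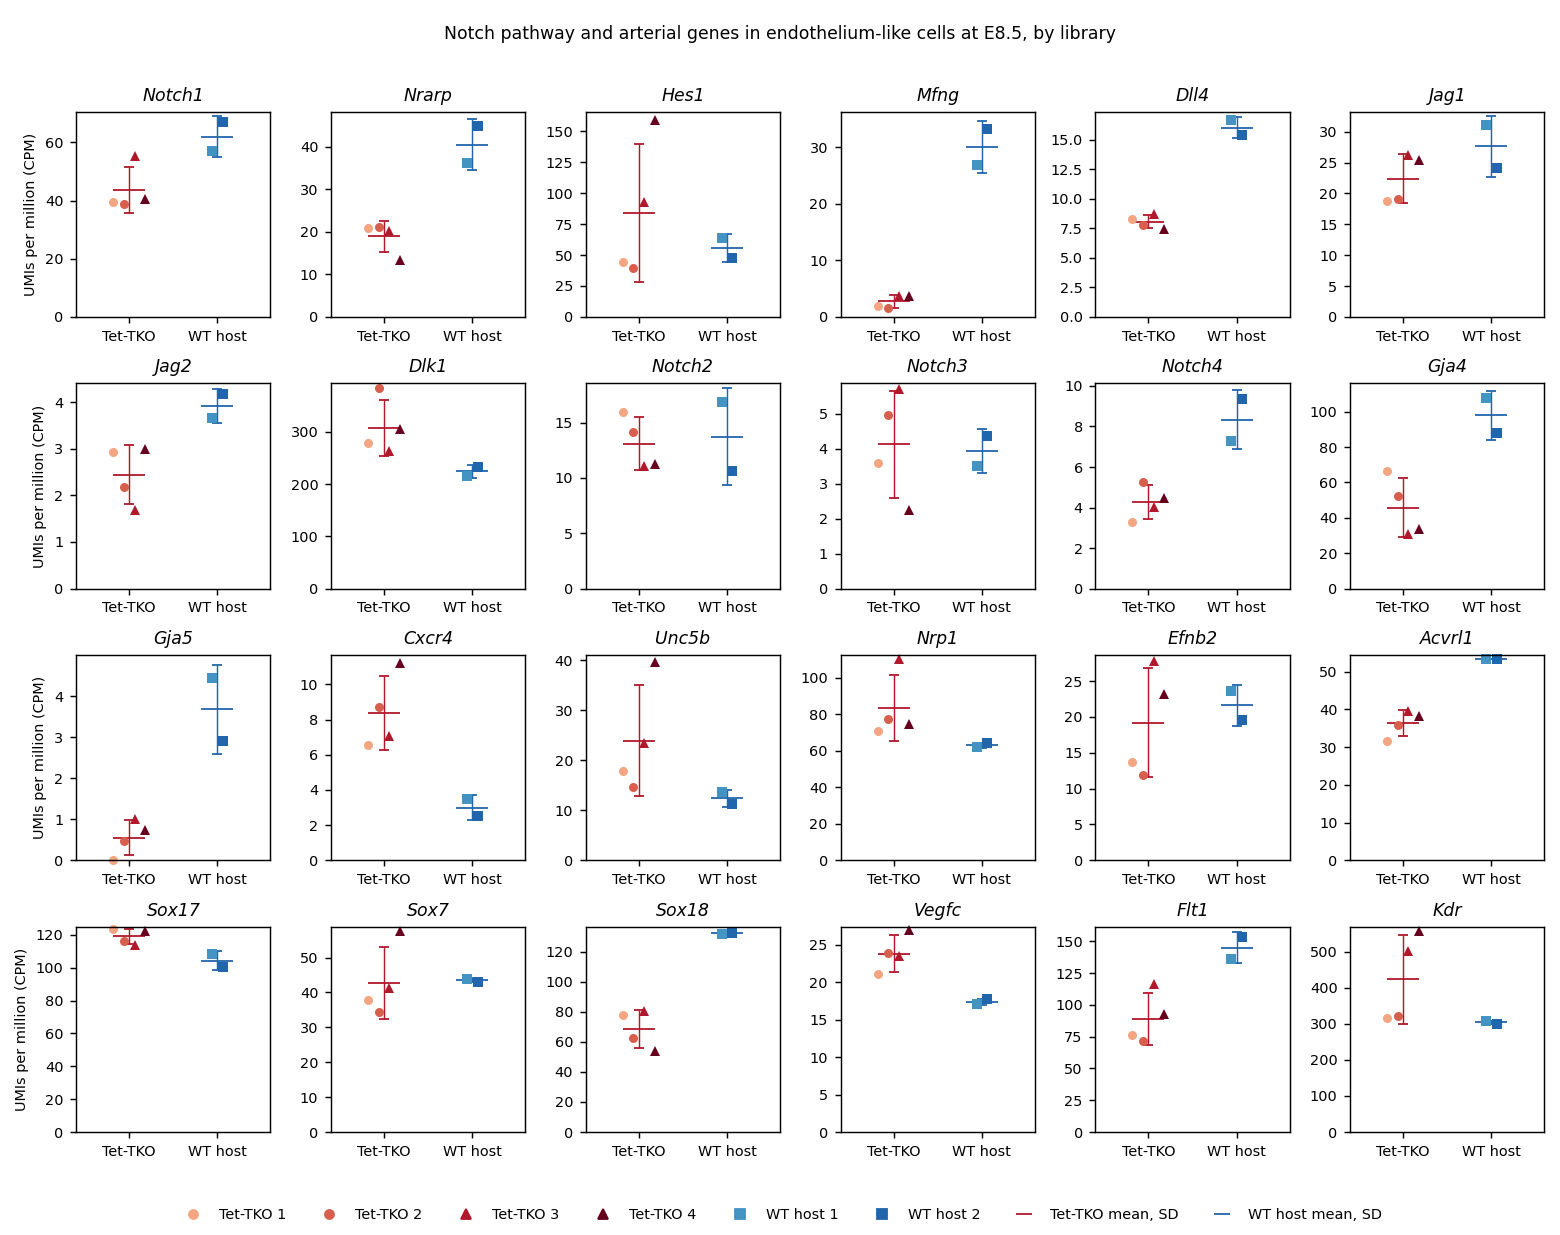
Levels of Notch1, Nrarp, Hes1, Mfng, 7 other Notch ligands and receptors and 13 arterial genes in endothelium-like cells at E8.5 (y axes, CPM), with 1 point per library and bars for the mean and SD of each genotype, ending at 0 where they would pass it. Mfng (at most 3.74 against at least 26.8 CPM), Dll4, Notch1, Nrarp, Jag2, Notch4 and 5 arterial genes lie lower in all 4 Tet-TKO libraries, Dlk1 and 6 arterial genes such as Cxcr4 and Nrp1 lie higher, and Hes1 spans 39.8 to 159 CPM in Tet-TKO cells around both WT host values.

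Whether the genotype difference of a member itself differed between classes was tested as an interaction in edgeR, the Tbx6-Msgn1 cluster against 3 other classes, with libraries as a term. Of 27 tests 0 were called, against 0.0724% of all genes for the endothelium-like, 0.0182% for the somite-like and 0.0251% for the spinal cord-like class. An unadjusted p under 0.05 was reached by 4, 2 and 4 of the 9 members in these, against 7.44%, 5.74% and 6.63% of all genes. The count of 0 calls does not show that the classes responded alike. The lowest adjusted p was 0.103, for Notch1, whose difference was higher by 0.73 ± 0.16 on the log2 scale in the Tbx6-Msgn1 cluster than in endothelium-like cells. For Nrarp the same contrast was 1.40 ± 0.37 (edgeR adjusted p = 0.172) and for Hes1 0.90 ± 0.25 (edgeR adjusted p = 0.197). Without Tet-TKO 1, the contrast of Nrarp was called (edgeR adjusted p = 0.00164). Against somite-like cells, the Hes1 difference was higher by 0.88 ± 0.21 (edgeR adjusted p = 0.328) and that of Dll1 lower, at -0.995 ± 0.342 (edgeR adjusted p = 0.685).

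The share of cells with at least 1 UMI was compared at a fixed depth of 5000 UMIs per cell, because libraries 3 and 4 were much deeper. Dll3 was seen at that depth in 31.6%, 35.8%, 43.5% and 34.8% of Tet-TKO cells of the Tbx6-Msgn1 cluster and in 48.4% and 57.5% of WT host cells. All 4 Tet-TKO libraries lay lower (exact two-sided permutation test over libraries, p = 0.1333, the smallest that 4 against 2 libraries can give). This counts the like libraries 1 and 2, and 3 and 4, as separate. In erythroid-like cells, which should lack Dll3, the share was 0.644% to 3.38% in Tet-TKO (3 libraries of 12 to 50 cells) and 0.493% and 0.513% in WT host cells, so the shares in the Tbx6-Msgn1 cluster stood well clear of it. Median depths before thinning in the Tbx6-Msgn1 cluster were 17807, 11319, 37530 and 65056 UMIs in Tet-TKO 1 to 4 and 13577 and 12960 in WT host cells, and in erythroid-like cells 22578 to 47038.5 and 15862 to 18981.5. Without thinning the Dll3 shares were 66.0%, 59.4%, 86.1% and 79.5% against 74.6% and 83.8%, which overlap.

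Shares of the Notch target Hes1 depended on the background. Hes1 was seen at 5000 UMIs in 21.4%, 18.7%, 35.9% and 36.1% of Tet-TKO and 13.2% and 13.4% of WT host cells of the Tbx6-Msgn1 cluster. In erythroid-like cells it was seen in 14.8%, 12.8% and 18.03% of the cells of Tet-TKO 1, 2 and 3 and in 4.14% and 3.80% of WT host cells. The shares of Tet-TKO 1 and 2 therefore stood closer to the erythroid-like share of their own library than those of both WT host libraries did, and no difference in the Tbx6-Msgn1 cluster is read from the shares of these 2 libraries. Nrarp was seen in 10.2%, 9.47%, 9.06% and 5.02% of Tet-TKO and in 17.0% and 20.1% of WT host endothelium-like cells, with erythroid-like shares of 0.612% to 8.64% and of 2.07% and 1.84%. Over all 90 pairs of a member and a class, 14 shares lay higher and 16 lower without overlap at 5000 UMIs, but 19 higher and 4 lower without thinning. Of the 58 pairs tested by edgeR, 12 shares lay higher and 9 lower at 5000 UMIs, against 8.65% and 12.5% over all genes tested. Without thinning they were 17 and 1, against 15.2% and 0.679%.

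Over the 31 groups of cells at E8.5 with enough libraries, which share the same 6 libraries, Hes1 was tested in 31. Its log2 fold change was above 0 in 30 of these and below 0 in 1, at -0.009. Hes1 was called in 1 group, the erythroid-like cells, at 1.605 ± 0.242 (edgeR adjusted p = 0.00472). The erythroid-like share of Hes1 given above is therefore not a background free of a genotype difference. In that class 5.03% of all genes were called. The test rested there on Tet-TKO 1, 2 and 3, with 13, 63 and 16 cells, since Tet-TKO 4 held 7. Dll3 was tested in 15 groups, Notch1 in 25 and Nrarp in 21, with 0 calls each.

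At E7.5 there was 1 library per genotype, so the values have exact 95% Poisson intervals that cover counting error only, and there is no test. Of 63 pairs of a member and a class, the intervals were apart in 10, with Tet-TKO lower in 7 and higher in 3. Among the 53 pairs with at least 10 UMIs, 5 were lower and 3 higher, whereas 5.89% of all such pairs over all genes were lower and 3.97% higher. Dll3 was lower in a cluster led by Lefty2 and Tbx6, at 127 CPM (113 to 143) in 100 Tet-TKO cells and 185 CPM (156 to 217) in 54 WT host cells, and in nascent mesoderm-like cells, at 108 (101 to 115) and 173 CPM (151 to 199). The reverse was seen in NMP-like cells, at 21.7 (17.4 to 26.9) in Tet-TKO and 12.5 CPM (9.94 to 15.4) in WT host cells. Lfng in nascent mesoderm-like cells was at 8.90 (7.02 to 11.1) and 20 CPM (12.8 to 29.8), and Ripply2 there, from 4 and 5 UMIs, at 0.462 and 4.17 CPM.

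Hes7 was lower in a cluster led by Aldh1a2 and Meox1, at 89.8 (73.1 to 109) in Tet-TKO and 125 CPM (110 to 141) in WT host cells, and Dll1 was higher in somite-like cells, at 43.9 (36.3 to 52.6) and 30.8 CPM (26.1 to 36.1). In haematoendothelial progenitor-like cells Notch1 was at 18.5 (14.5 to 23.1) in 158 Tet-TKO cells and 48.4 CPM (40.7 to 57.1) in 189 WT host cells. The direction there was that of the same class at E8.5. Hes1 was higher in that class, at 51.7 (45.0 to 59.2) and 36.6 CPM (29.99 to 44.3), and Hes7 had 0 UMIs in Tet-TKO cells, which allows up to 0.739 CPM taken as 3 UMIs or 0.908 CPM by the interval, against 2.42 CPM (0.972 to 4.98) in WT host cells. Cells of 1 class need not be at the same age in both libraries, which cannot be told apart from the genotype.

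**Figure D5:**
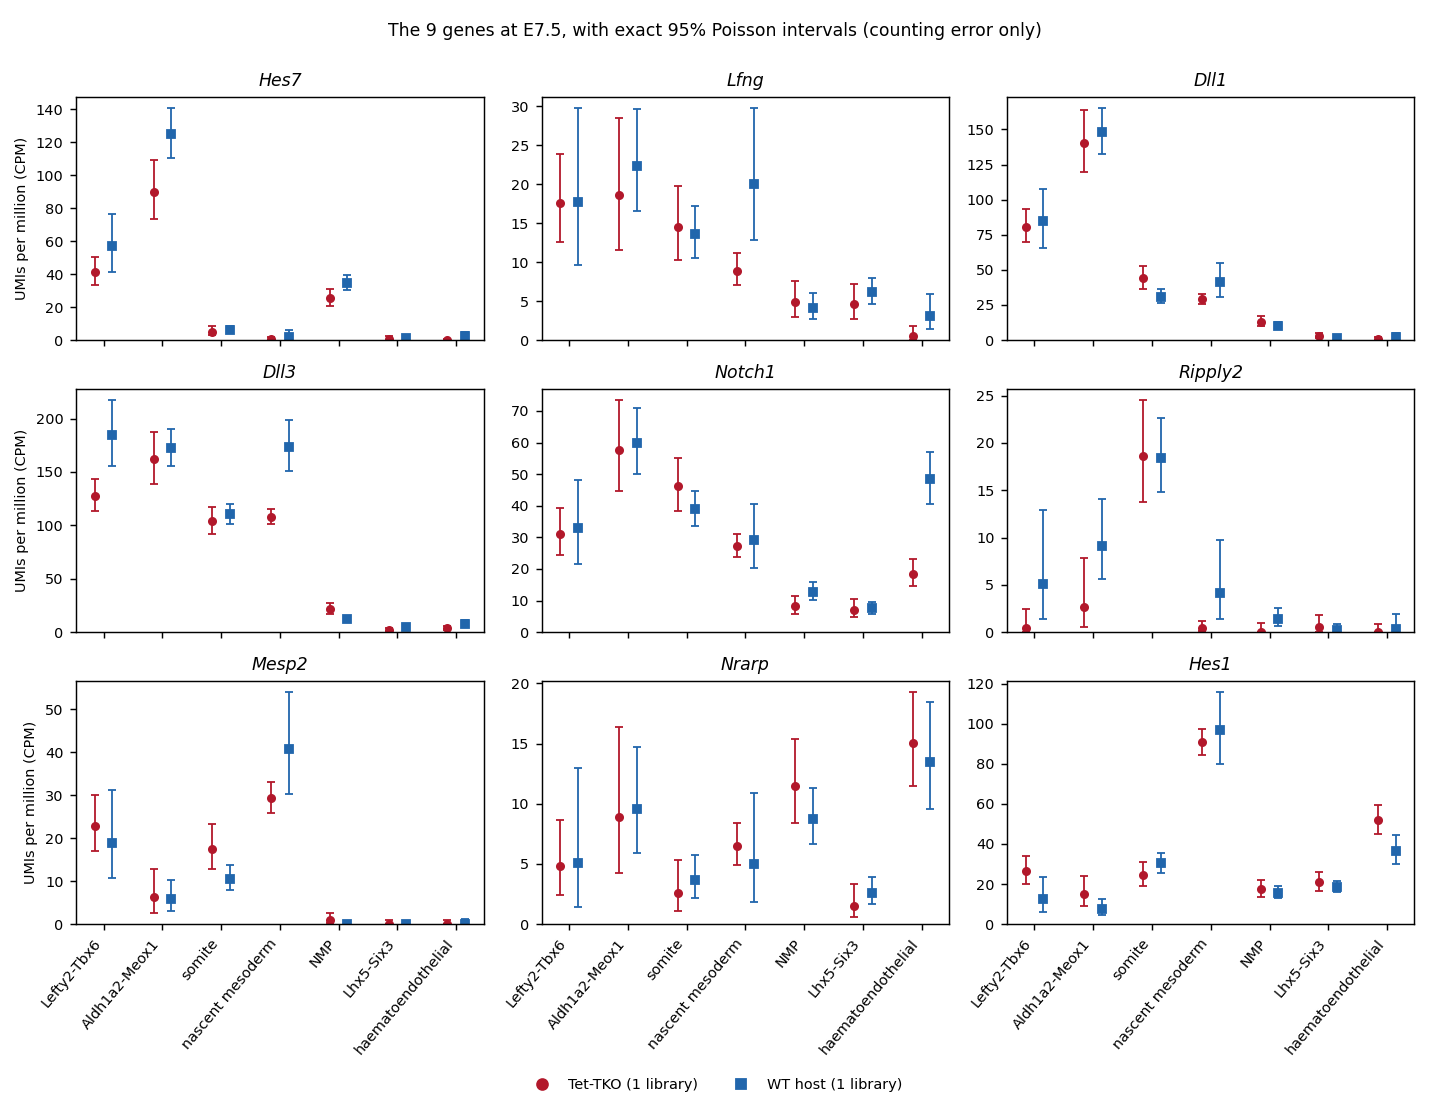
Levels of the 9 genes at E7.5 (y axes, CPM) in 7 classes (x axes), 1 library per genotype, with exact 95% Poisson intervals. Dll3 in nascent mesoderm-like cells (108 against 173 CPM) and Notch1 in haematoendothelial progenitor-like cells (18.5 against 48.4 CPM) are among the 10 pairs whose intervals are apart.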

How the data were processed

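Tet-TKO and WT host cells of E7.5 and E8.5 chimaeras were profiled by 10x Genomics 3′ chemistry (version 3), and per the file headers the authors deposited UMI counts from Cell Ranger 3.1.0 on mm10, with the GRCm38.92 annotation per the labels. The deposited counts are not normalized and give whole UMIs per gene and barcode, so duplicate reads had been collapsed before deposit.

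Barcodes under 1500 UMIs, over 30% mitochondrial UMIs or over 35% UMIs of ribosomal proteins were dropped. Cells of each stage were clustered in scanpy 1.11.5 on 2500 variable genes without the 9 genes (50 components, mutual nearest neighbours between libraries, Leiden resolution 2, seed 1) and named by markers with a rule set after the clusters were seen. The cells with the highest Scrublet scores, 6.38% (E8.5) and 5.15% (E7.5), were marked as doublets and removed only in an alternative. These percentages were set in advance from the number of cells per library and are not a measured doublet rate. Counts were summed per class and library where it had at least 10 cells, filtered by filterByExpr, scaled by TMM and tested in edgeR 4.0.16 (R 4.3.3) by glmQLFit and glmQLFTest with Benjamini-Hochberg adjustment. SE is the absolute log2 fold change over the root of F. CPM are scaled to the sum of the class. The study's own clustering and atlas labels were not used here, so class borders may differ. Steps were tested on simulated data with known changes. At a log2 change of 1, 45% of changed genes were called in the Tbx6-Msgn1 cluster and 56% in endothelium-like cells. The interaction test between these classes called 7%. At a log2 change of 2 these were 99%, 100% and 87%. A count of 0 calls therefore does not show that changes of the smaller size were absent.

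The 9 genes and all lists were chosen with earlier results of these data known. Named genes were the 9 members in every class, any other list gene called in a presomitic, somite, neural or endothelial class, and for each member the 3 genes with the highest correlation over classes among those reaching 20 CPM. Of these, 2 are not reported here. Genes named without a call, such as Dll4, Notch4, Hes3 and Tbx6, were chosen after their values were seen. Alternatives were other normalization, filters, clustering, thresholds, DESeq2 1.42.0 and leaving out each library. Shared replicate numbers (1 and 2) do not mark shared pools in the labels.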

Additional observations from a re-analysis of the deposited data

Results flagged for a closer look

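Of 54 groups of 4 Tet-TKO libraries examined for a library far from the others by Dixon's criterion, 4 held one, and chance alone gives about 1 in 20 groups. Hes7 in the Tbx6-Msgn1 cluster was at 79.1 CPM in Tet-TKO 1, with the other 3 at 127 to 136 CPM. Notch1 in the Egr2-Olig3 cluster was at 33.1 CPM in Tet-TKO 4, with the other 3 at 11.5 to 13.3 CPM. In endothelium-like cells Notch1 was at 55.3 CPM in Tet-TKO 3, with the others at 38.8 to 40.4 CPM, and Nrarp was at 13.5 CPM in Tet-TKO 4, with the others at 20.1 to 21.1 CPM. Tet-TKO 4 had 25 endothelium-like cells. Both endothelial values kept their side of the WT host libraries with or without these libraries.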

How the results depend on the processing

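Of 48 single values, those called or with an unadjusted p under 0.05, recomputed under 787 combinations with an alternative, 731 kept their direction and side of the threshold, 41 passed it anew, 15 lost it and 0 reversed. The 80 other member values did not hold their sign as well: 49 of them changed it in 130 of 1291 combinations, none with a call, such as Dll1 in forebrain-like cells (-0.19, and 0.43 with Tet-TKO 1 and 2 alone). Counts of called members in the classes were 0 under every alternative except DESeq2 (2), no filter on low counts (4), Tet-TKO 3 and 4 alone (12) and the replicate block below. Calls over all genes rose too, from 0.468% of pairs to 0.864%, 1.04% and 3.7% under the first 3. Along the order they were 0 except with no filter (8), Tet-TKO 3 and 4 alone (10) and the replicate block below. Calls over all genes in the bins rose from 0.291% to 0.853% and 2.99% under the first 2. For the difference between classes they were 0 to 1 when 1 library was left out, 1 with no filter and 2 with either pair alone. The shares over all genes under these fits are not given, so these counts are not read as a result about the members. List genes called numbered 5, but 17 with DESeq2, 45 with no filter, 37 with Tet-TKO 1 and 2 alone, 83 with Tet-TKO 3 and 4 alone, 9 at cluster resolution 1 and 2 to 8 when 1 library was left out. Calls over all genes moved too, to 1.51% of pairs with Tet-TKO 1 and 2 alone, 0.524% at cluster resolution 1 and 0.118% to 0.493% with 1 library left out. The list counts are therefore not read as a result about the lists. Shares without overlap numbered 30, and 32 to 46 when 1 library was left out, with no share over all genes given for the latter. The cause of these changes was not tested.

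A fit with the replicate number as a block, over libraries 1 and 2 of each genotype, called 3 members in the classes (Lfng and Mesp2 in somite-like cells, Notch1 in haematoendothelial progenitor-like cells), 2 along the order and 60 list genes, with 2.29% of all pairs called in the classes and 1.7% along the order. Mesp2 went opposite ways by number, with Tet-TKO 1 at 1.26 against WT host 1 at 6.60 CPM and Tet-TKO 2 at 19.0 against WT host 2 at 1.50 CPM. The study compared cell type proportions of each Tet-TKO sample with those of a matching WT host, but the labels do not say which libraries match or that a number marks a shared pool. The deviations of same-numbered libraries correlated at 0.0645 to 0.236 over the 10 classes, weakly but above 0 in each. The share of a class among the cells of a library moved the same way from library 1 to 2 in both genotypes, except in endothelium-like cells. In the Egr2-Olig3 cluster it went from 1.25% to 2.94% in Tet-TKO and from 1.21% to 2.99% in WT host libraries. In endothelium-like cells it went from 4.30% to 4.90% and from 5.32% to 4.28%. Whether the numbers mark shared pools was not tested. The main fits take no account of any matching. Low UMI counts limit Ripply2 and Mesp2 outside somite-like cells, and Mesp2 within them too (2 to 73 UMIs per library). The 2 WT host libraries limit every comparison.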
